A study of Cavia porcellus with 8 samples.

Results

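The CD1 family of the guinea pig was followed in cochleae with and without an inserted electrode. Its members were taken as the array features whose GenBank accession lies between AF145483 and AF145491, the accessions of the guinea pig CD1 submission, and 8 of these 9 accessions are rows of the value table, out of 13269 features in all. AF145491 was not analysed here. Only 3 members could be given a CD1 name, because the averages of their deposited signals matched the printed averages of a single gene in each case. AF145483 is CD1-b1, AF145486 is CD1-b4 and AF145490 is CD1-e. The other 5 members, AF145484, AF145485, AF145487, AF145488 and AF145489, are called by their accession, since the guinea pig gene table lists 9 CD1 genes (Cd1b1 to Cd1b4, Cd1c1 to Cd1c3, Cd1d and Cd1e) but pairs none of them with these accessions.

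CD1 proteins are cell surface molecules built like MHC class I and paired with beta-2 microglobulin. They carry lipids and glycolipids in their groove and show them to T cells, as MHC molecules do with peptides. CD1b and CD1c are found mainly on dendritic cells, other antigen-presenting cells and thymocytes, CD1d presents to natural killer T cells, and CD1e stays inside the cell, where in humans it helps to load lipids onto other CD1 molecules. Mice have lost all CD1 genes except CD1d, and the guinea pig, which has kept the CD1b, CD1c and CD1e types, has been used as a small animal model of their function.

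All animals were male Hartley guinea pigs, labelled as 8 weeks old. The groups were cochleae taken 7 days after insertion of a normal silicone dummy electrode (NOR, n = 3), cochleae taken 7 days after insertion of the same type of dummy electrode eluting dexamethasone, a synthetic glucocorticoid (DEX, n = 3), and cochleae without surgery (CNT, n = 2). The electrodes had no wires and gave no current, the controls had no sham operation, and RNA came from the whole cochlea, so fewer cells of a type and less RNA per cell cannot be told apart in any value. Because features carry accessions only, cochlear marker genes were not checked here.

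There was 1 array per cochlea, and its deposited values are linear signal intensities. The arrays fell into 2 sets of 4 by their values. Any 2 arrays of a set had between 246 and 384 signal values that occurred digit for digit on both, while pairs taken across the sets had 30 to 52. The first 2 animals of each electrode made up set A, and the third of each electrode made up set B together with both controls. Median signals lay between 395 and 405 in set A and between 308 and 325 in set B, and the log2 signals were therefore quantile-normalized over all 8 arrays. Neither labels nor methods name the sets. All signals below are normalized unless stated otherwise.

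The CD1 signals were at the dim end of the array. On the control arrays the 8 members ranked between the 0.301 and the 12.1 percentile of all features, and on the arrays of implanted cochleae between the 1.18 and the 36.9 percentile. Their signals ran from 5.25 to 98, where the lowest normalized signal of any feature was 2.48. The files hold no detection call or background value, so that it is not known which of these signals stood above background. The members are copies of 1 gene family, and whether a probe of one member also bound the transcript of another was not tested, since no probe sequence was used here.

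The first comparison asked which CD1 transcripts changed with insertion of a normal electrode. The mean signal of NOR was above that of CNT in all 8 members, and in 8 of 8 all 3 NOR animals lay above both controls, a pattern that 25.5% of all features showed. The median log2 fold change of the members was 0.89, against 0.01 over all features and -0.01 over the 3318 features with the lowest mean signal (25% of the array), to which all 8 members belong. The single members ran from 0.21 in AF145487 to 2.02 in AF145485. With signals under 20 set to 20, a floor above all control signals of the members, 3 of the 8 were above 0 and the median was 0.00.

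CD1-b1 (AF145483), a copy of the CD1b type that in humans samples lipids in late endosomes and lysosomes, had signals of 23.6, 14.1 and 20.3 in NOR replicates 1, 2 and 3, and of 8.61 and 8.55 in the controls. The lowest NOR animal was well above the controls, which were almost equal. The group means were 19.3 ± 4.86 (SD, n = 3) and 8.58 ± 0.0443 (SD, n = 2), and the log2 fold change from limma was 1.14 with a standard error (SE) of 0.35 (adjusted p = 0.0818). CD1-b4 (AF145486), another CD1b copy, gave 13.5, 13.9 and 12.6 in NOR and 7.79 and 5.35 in the controls. Its NOR animals were the closest together of the 3 named members in relative terms, and the difference was 1.05 on the log2 scale (SE 0.36, adjusted p = 0.105).

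CD1-e (AF145490), the intracellular member, had signals of 44.1, 36.0 and 32.8 in NOR and of 15.3 and 15.9 in the controls. The groups stood clearly apart, with means of 37.6 ± 5.80 (SD, n = 3) and 15.6 ± 0.360 (SD, n = 2). Its log2 fold change of 1.26 nevertheless had a wide error (SE 0.63, adjusted p = 0.235). The fit takes the spread from all 3 groups, and the DEX animals were far apart for this gene. CD1-b1, CD1-b4 and CD1-e were listed by the study for their rise on these same arrays, so their direction is not independent evidence.

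The 5 members without a CD1 name were not listed there. Among them AF145485 had the widest difference, with 36.2, 20.4 and 38.9 in NOR and 8.96 and 6.4 in the controls. This is a log2 difference of 2.02 (SE 0.61, limma adjusted p = 0.0797). AF145484 had 13.5, 8.12 and 10.04 in NOR and 5.74 and 6.80 in the controls, and here NOR replicate 2 came close to the second control. AF145489 had 9.84, 10.96 and 7.80 in NOR and 5.25 and 6.13 in the controls.

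AF145488 was the most even member within NOR, with 10.3, 9.70 and 9.82 against 7.15 and 5.6, a log2 difference of 0.65 (SE 0.21, limma adjusted p = 0.0894). AF145487 had 7.14, 7.34 and 8.69 in NOR and 6.80 and 6.55 in the controls. Its NOR replicate 1 stood barely above the controls, and its log2 fold change was the lowest of the family at 0.21 (SE 0.13, adjusted p = 0.346). It was 0.12 without NOR replicate 3, 0.013 with median centring and 0.42 with cyclic loess.

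**Figure D1:**
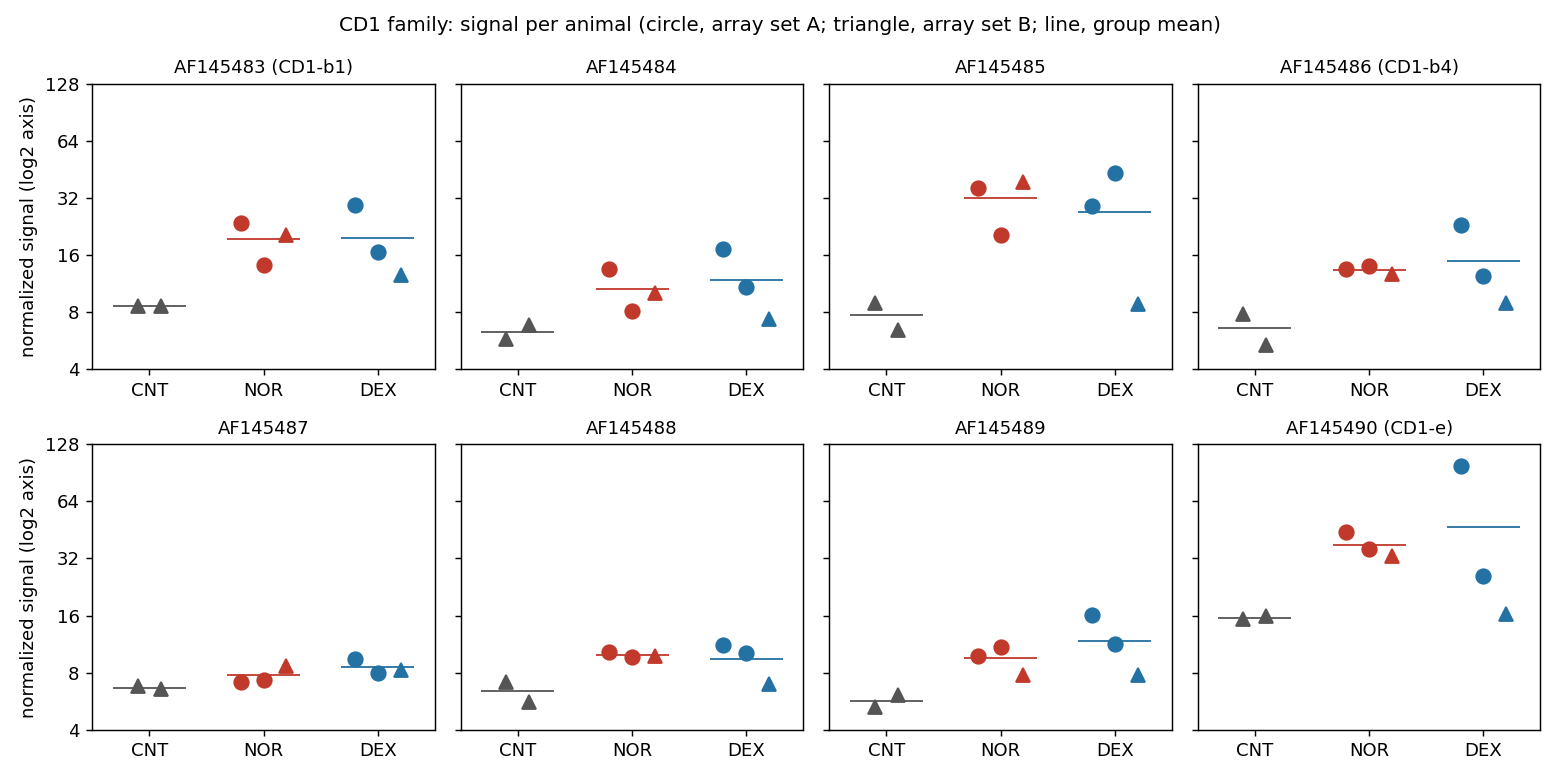
Normalized signal (log2 axis) of the 8 CD1 members in each animal, by group (CNT, NOR, DEX), with circles for array set A, triangles for array set B and a line at the group mean. In all 8 panels the NOR animals lie above both controls, and DEX replicate 3 (the DEX triangle) is the lowest DEX animal in 7 of them.

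At an adjusted p under 0.05 with at least a 2-fold change, limma called 0 of the 8 members higher in NOR, against 1.34% of all features, and 5 of the 8 had an unadjusted p under 0.05, against 28.2% of all features. The methods' t-test, run on the signals as deposited, likewise put 5 of 8 at p under 0.05 before Benjamini-Hochberg adjustment, against 22.2% of all features, and 0 after it. After adjustment, 0.00754% of all features passed with at least a 2-fold rise. With the replicate number as a block, CD1-b1 and CD1-b4 were called, against 1.83% of features. This block put each control with the NOR and DEX animals of its number, which are in the other array set. No pairing of the controls with these animals is known. When the fit held only the NOR and CNT arrays, AF145485, CD1-b4 and CD1-e were called, against 1.06% of features, and with array weights AF145485 and CD1-b4 were, against 1.88%. Both control arrays were in set B, and once the array set entered the model the median log2 fold change of the members fell to 0.53.

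Within set B, NOR replicate 3 could be set against the controls of its own set. This sets a single animal against 2, with a spread assumed to be that of the other arrays, so that its p-values say nothing of the spread between NOR animals. All 8 members were again higher in it, with a median log2 fold change of 0.83. AF145485, at 2.36 (SE 0.38, limma adjusted p = 0.00734), and AF145488, at 0.63 (SE 0.18, adjusted p = 0.04), passed an adjusted p of 0.05 here, where 12.9% of all features were called higher.

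The second comparison set the dexamethasone-eluting electrode against the unoperated cochlea. All 8 members had a higher mean in DEX than in CNT, with a median log2 fold change of 1.03 against 0.01 over all features, and a range from 0.35 in AF145487 to 1.55 in AF145485. With the floor of 20 the median was 0.035, with 4 of the 8 above 0. These values share their 2 control arrays with those of NOR against CNT. In 6 of 8 members all 3 DEX animals lay above both controls, against 25.4% of all features. The exceptions were AF145485 and AF145488, in which DEX replicate 3 fell among the controls. They depended on the scaling, being AF145485 and CD1-e (AF145490) in the signals as deposited (34.1% of all features) and with median centring (19.1%), and AF145485 alone with cyclic loess (25.1%). Leaving out DEX replicate 3 brought the count to 8 of 8, against 33.8% of all features. Leaving out DEX replicate 1 instead kept all 8 members higher, but the median log2 fold change fell to 0.60 and that of CD1-e (AF145490) from 1.15 to 0.40.

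The SD among DEX animals exceeded that among NOR animals in 7 of the 8 members, all except AF145487. This count is not set against all features here. CD1-e (AF145490) had signals of 98, 26.0 and 16.3 in DEX replicates 1, 2 and 3. Replicate 1 was thus the brightest of the 8 arrays for this gene, while replicate 3 was just above the controls at 15.3 and 15.9. CD1-b1 had 29.5, 16.6 and 12.6, and CD1-b4 had 23.1, 12.3 and 8.94, in both cases with the same order of animals.

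AF145485 departed from that order. Its signals were 28.8, 43.2 and 8.76, so that replicate 2 was its highest DEX animal and replicate 3 lay between the controls at 8.96 and 6.4. AF145484 had 17.2, 10.8 and 7.30 and AF145489 had 16, 11.3 and 7.82, again highest in replicate 1. AF145488 had 11.2, 10.2 and 7.0. In AF145487, with 9.39, 7.98 and 8.23, replicate 2 was the lowest of the 3.

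Counted over the family, DEX replicate 1 was the highest DEX animal in 7 of the 8 members, while it was the highest in 24.0% of all features. DEX replicate 3 was the lowest in 7 of 8, against 36.7% of all features. Replicates 1 and 2 were in array set A and replicate 3 was in set B. What lay behind this order was not tested. In NOR, replicate 1 was highest in 4 members (30.1% of all features), replicate 2 in 2 (25.9%) and replicate 3 in 2 (44.0%), and they were lowest in 1, 4 and 3 members. Whether the order in DEX differed from that in NOR was not tested.

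In DEX against CNT, limma called 0 of the 8 members higher, against 0.957% of all features, while 7 of 8 fell under 0.05 without adjustment, against 25.1% of all features. By the methods' t-test this was 1 of 8 before adjustment, against 19.2% of all features, and 0 after it. Here too, 0.00754% of all features passed after adjustment with at least a 2-fold rise. With the replicate number as a block, again with the controls in the blocks, CD1-b1, CD1-b4 and AF145489 were called, against 1.61% of features. AF145489 had the lowest adjusted p, with a log2 difference of 0.99 (SE 0.29, limma adjusted p = 0.0869). CD1-e, with a log2 fold change of 1.15, had the highest (SE 0.63, adjusted p = 0.302). Without DEX replicate 3, AF145485 and AF145489 were called, against 1.27% of features, and with array weights 6 members were, against 1.76%, where AF145487 and AF145488 passed the adjusted p but were under 2-fold. In set B alone, DEX replicate 3 was above the mean of the controls in all 8 members, by a median of 0.26 on the log2 scale, while over all DEX animals the model that included the array set gave a median of 0.55.

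**Figure D2:**
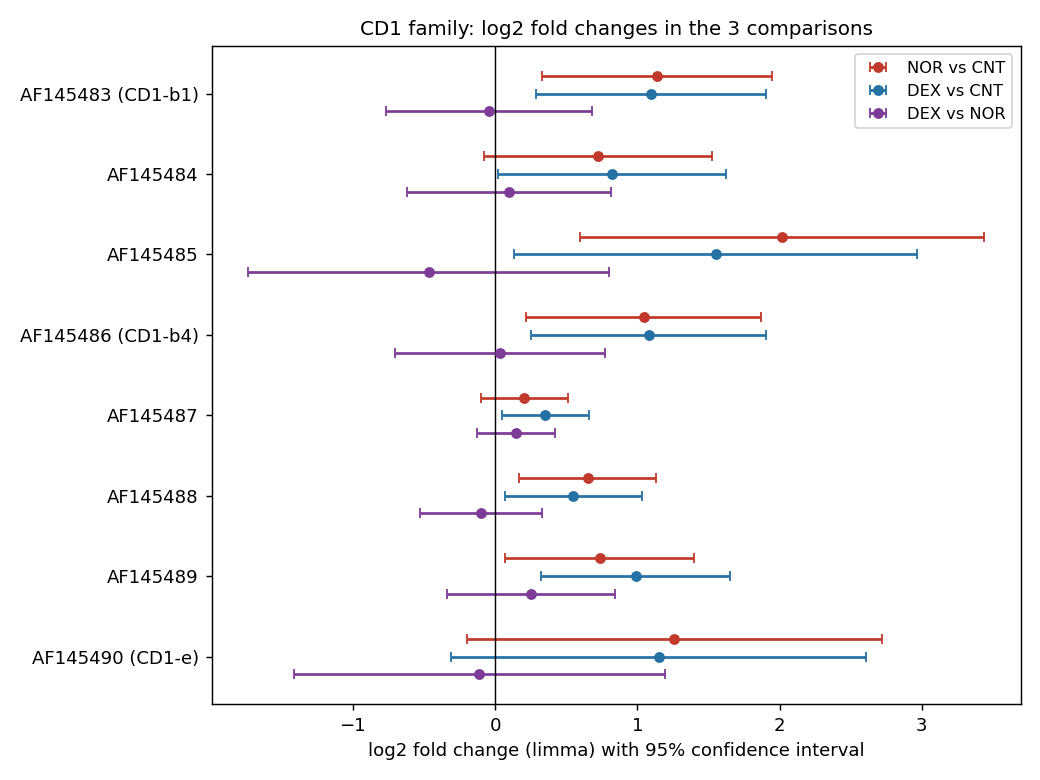
Log2 fold change (horizontal axis) of each CD1 member in NOR against CNT, DEX against CNT and DEX against NOR, with 95% confidence intervals from limma before adjustment for the number of features. All values against CNT are above 0, from 0.21 to 2.02, while those of DEX against NOR lie on both sides of 0 and all their intervals include 0.

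The direct comparison of the 2 electrodes asked whether elution of dexamethasone changed the CD1 signals. The DEX and NOR animals overlapped in all 8 members, whereas 5.45% of all features showed no overlap in one direction or the other. The median log2 fold change of the members was -0.01, with 4 members above 0 and 4 below. With ratios of deposited averages, as in the methods' t-test, 5 members were above 0 and the median was 0.13. With array weights, which gave DEX replicate 1 the highest weight (5.48) and NOR replicate 3 the lowest (0.225), all 8 members were above 0 with a median of 0.54. There 0 of 8 were called, where 0.0226% of all features were called higher and 0 lower. Without adjustment, 6 of 8 had a limma p under 0.05, against 16.6% of all features. Limma called 0 of the 8 members and 0% of all features at an adjusted p under 0.05, and 0 members were under 0.05 without adjustment by limma, against 2.48% of all features, or by the methods' t-test, against 1.56%.

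The small average differences had wide intervals. For CD1-e (AF145490) the log2 fold change was -0.11, with a 95% confidence interval from -1.41 to 1.20, which holds changes of more than 2-fold in both directions. Its mean linear signal was instead higher in DEX (46.8) than in NOR (37.6), and the ratio of deposited averages gave a log2 value of 0.36. For CD1-b1 (AF145483) the log2 fold change from limma was -0.04 (-0.77 to 0.68) and for CD1-b4 (AF145486) 0.03 (-0.71 to 0.77). AF145485 had the largest absolute value, -0.47 (-1.74 to 0.80), and AF145487 the narrowest interval, 0.15 (-0.13 to 0.42).

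The sign of the difference followed single animals. Without DEX replicate 3 all 8 members had a log2 fold change above 0, between 0.10 and 0.52, and without DEX replicate 1 only AF145487 did. For CD1-e (AF145490) the value was 0.43 without DEX replicate 3 and -0.86 without DEX replicate 1.

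Within array set A, which held 2 animals per electrode, all 8 members were higher on average in DEX than in NOR, by 0.10 to 0.38 on the log2 scale, with a median of 0.32. Set B held 1 animal per electrode, so that its errors and p-values rest on the spread of the other arrays. There 7 of the 8 were lower in DEX, AF145489 was at 0.00, and the median was -0.49. AF145485 gave the largest difference in set B, with a log2 value of -2.15 (SE 0.44, limma adjusted p = 0.0888), from a signal of 38.9 in NOR replicate 3 and 8.76 in DEX replicate 3. CD1-e had 0.34 (SE 0.52) in set A and -1.01 (SE 0.73) in set B.

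With 1 animal per electrode in set B, the errors and p-values that follow again rest on the spread of the other arrays. The difference between the sets was itself tested in the model with group and set. It was below 0 in all 8 members, but 0 of the 8 passed an adjusted p of 0.05, as did 0% of all features, and 1 of the 8 (AF145485) had an unadjusted p under 0.05, a share near the 11.6% of all features that did. For AF145485 the electrode effect in set B minus that in set A was -2.52 (SE 0.54, limma adjusted p = 0.188).

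**Figure D3:**
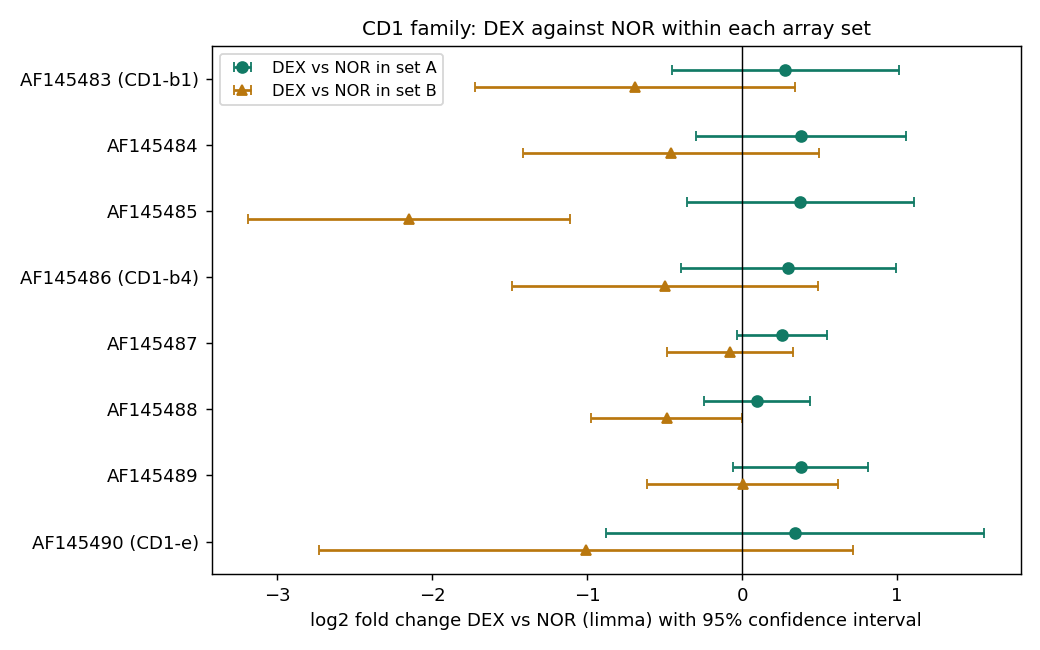
Log2 fold change of DEX against NOR (horizontal axis) for each CD1 member within array set A (circles, 2 animals per electrode) and array set B (triangles, 1 animal per electrode), with 95% confidence intervals from limma, which in set B rest on the spread of the other arrays. Set A values lie between 0.10 and 0.38, and set B values between -2.15 and 0.00.

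The members moved together across the arrays. Over the 28 pairs of members, Pearson's r of the log2 signals across the 8 arrays ran from 0.54 to 0.96 with a median of 0.83, and after subtraction of the group means it ran from 0.10 to 0.96 with a median of 0.67. These values are descriptions: the arrays share groups, array sets and the normalization, and the members may share bound transcripts.

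Among all other features, CD1-b4 had the 4th highest r with CD1-e (0.93 over the 8 arrays). The other features of the first 5 were EL937791 (0.98), EL937798 (0.97), EL940036 (0.94) and EL938964 (0.92), for which the files give no gene name. Those 4 were bright features that varied little, since the highest signal of EL937791 was 1.29 times its lowest, against 4.32 times for CD1-b4. AF145484 was 10th with 0.92, CD1-b1 18th with 0.91, AF145489 45th with 0.87 and AF145488 92nd with 0.83. AF145485 and AF145487, with 0.69 and 0.63, were much less like CD1-e. Without the 2 arrays farthest from the median of CD1-e, DEX replicate 1 and CNT replicate 1, r with CD1-e was 0.86 for CD1-b4 and 0.82 for AF145485 over 6 arrays, and 0.11 for AF145487, whose likeness thus rested on those arrays.

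Because CD1 molecules sit on antigen-presenting cells, genes of such cells and of the T cells they meet were set beside them. Of 13 genes of this kind, 11 matched a single feature. Limma called 9 of the 11 higher in NOR than in CNT, against 1.34% of all features, with a median log2 fold change of 1.44. It called 8 of 11 in DEX against CNT, against 0.957% of all features, with a median of 1.25, and 0 of 11 in DEX against NOR, where 2 were under 0.05 without adjustment by limma (2.48% of all features) and 1 by the methods' t-test (1.56%). The 2 had opposite signs, MHC class II (AB084158) at a log2 value of -0.45 and the Fc-gamma receptor feature D13692 at 0.67. The study listed these genes for their rise on the same arrays, so this is not independent evidence of direction.

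The genes called in NOR against CNT included MHC class II (AB084158), which presents peptides to helper T cells, at a log2 difference of 1.25 (SE 0.16, limma adjusted p = 0.0097). The Fc-gamma receptor feature D13691, from a family of immunoglobulin receptors of phagocytes, had 2.04 (SE 0.34, adjusted p = 0.0176). CD8 alpha (AY303773), a coreceptor of cytotoxic T cells, had 1.44 (SE 0.21, adjusted p = 0.0132). Interleukin 15 (AB128160), a cytokine that maintains natural killer and memory T cells, had 1.56 (SE 0.31, adjusted p = 0.0292). Those not called were the Mo1-alpha adhesion glycoprotein M19663 (printed as CD18 by the study) and the cytochrome b-558 alpha chain AB105910, at 0.93 (adjusted p = 0.062) and 0.85 (adjusted p = 0.0817).

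The summed signal of 8 leukocyte markers (3 Fc-gamma receptor features, the Mo1-alpha adhesion glycoprotein, the cytochrome b-558 alpha chain, CD8 alpha, CD8 beta and MHC class II) was 11968, 9588 and 16671 in NOR replicates 1, 2 and 3, 13159, 15138 and 12359 in DEX, and 4865 and 5053 in CNT, and none was at 0. This sum of linear signals rests mainly on the brightest features. The median log2 signal of the CD1 members over the control mean was 1.64, 0.86 and 0.26 in DEX replicates 1, 2 and 3, and that of the 11 leukocyte genes was 1.5, 1.45 and 0.89. In NOR the same medians were 1.09, 0.83 and 0.83 for CD1 and 1.35, 1.29 and 1.46 for the leukocyte genes. The part of leukocyte number in the CD1 signals was not tested.

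**Figure D4:**
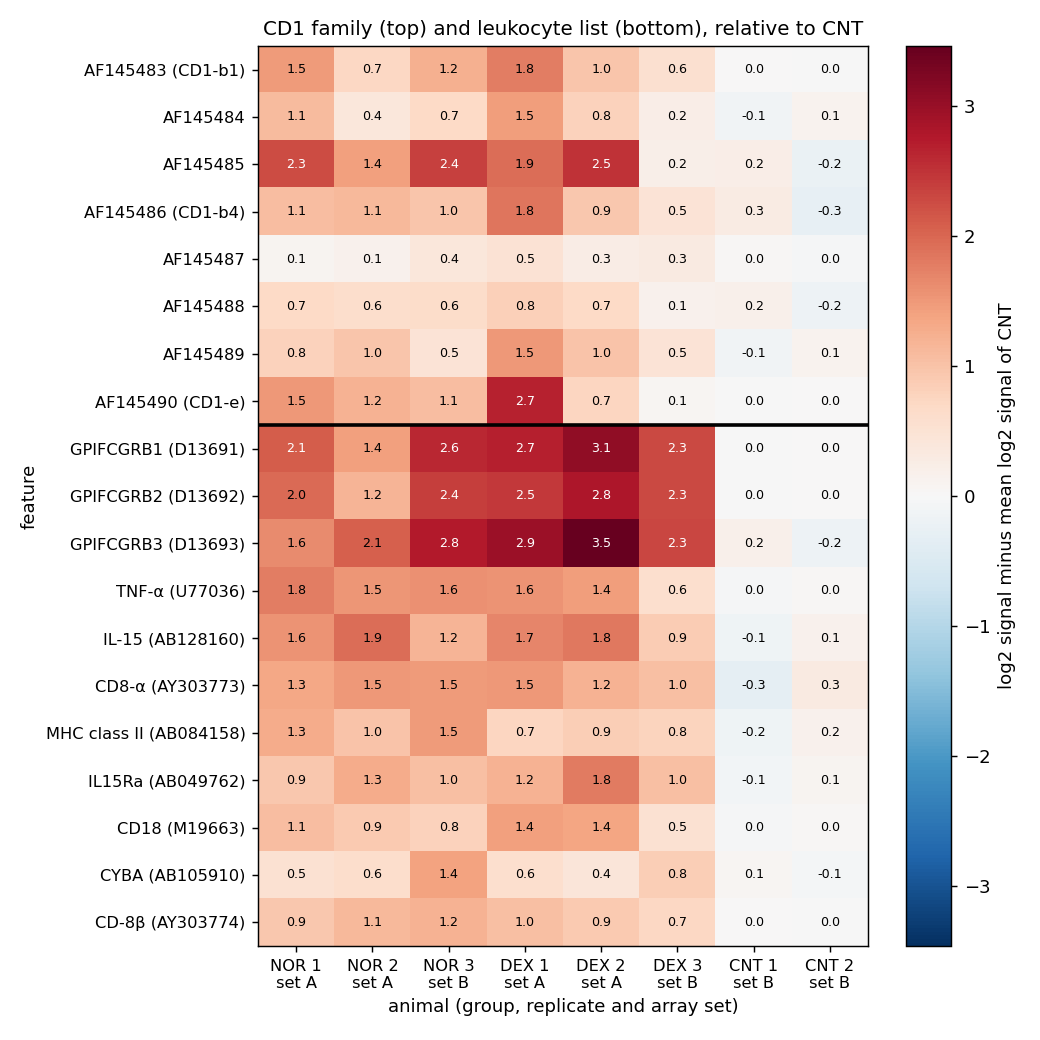
Log2 signal minus the mean log2 signal of the controls, by color and printed value, for the 8 CD1 members (top) and the 11 leukocyte list genes (bottom) in each of the 8 animals (horizontal axis). All 19 features are above the control mean in the 6 implanted cochleae, and CD1-e runs from 0.06 in DEX replicate 3 to 2.65 in DEX replicate 1.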

How the data were processed

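Labeled cDNA of 8 cochleae (3 NOR, 3 DEX, 2 CNT) was hybridized to 1-color NimbleGen guinea pig arrays, and per the methods the authors analyzed different probes of a gene as 1 gene. Their deposited values are linear signal intensity, 1 for each of 13269 features per array, as written by the authors. RMA is named in the submitters' processing notes, without saying which arrays were processed together. The members, gene lists and alternatives were chosen with earlier results of these data known.

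Log2 signals were quantile-normalized because medians differed by up to 0.39, and 1 limma model with 3 groups was fitted to all features. P-values were adjusted over all features (Benjamini-Hochberg). A call needed an adjusted p below 0.05 and, except in DEX against NOR and in comparisons within or between array sets, at least a 2-fold change. Named genes were all members, a list of 13 leukocyte genes and the 5 features most like CD1-e. A gene was matched to a feature whose 3 group averages lay within 0.5% (or the final digit) of the printed ones. Animals are the replicates, and their small number limits the precision. Array sets were arrays sharing at least 150 signal values.

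Residuals of NOR and DEX arrays of the same number correlated at 0.22, 0.36 and 0.53 across features. Different numbers within set A gave 0.20 and 0.33, and the 0.53 was that of set B. Pairs of animals can therefore not be told from array sets by these values. For controls the correlations with the same number lay between -0.10 and 0.18, which gives no pairing. The main model had no pairing. The replicate block was an alternative fit, and it held the controls by their number as well. The procedure was run on simulated signals with independent noise and a shift in NOR larger than the median change of the members. These held no array sets, so they do not show how the procedure behaves with them. R 4.3.3, limma 3.58.1, numpy 2.4.6, pandas 2.3.3 and matplotlib 3.10.9 were used.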

Additional observations from a re-analysis of the deposited data

How the results depend on the processing

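The count of 0 members called in NOR against CNT became 2 with array weights (1.88% of all features), 3 with only the compared groups (1.06%), 2 with the replicate block (1.83%) and 3 with the methods' t-test at 2-fold and an unadjusted p under 0.05 (1.98%), namely CD1-b1, CD1-b4 and CD1-e, the genes that the study listed on these arrays. With each animal left out in turn it was between 0 and 2: it was 2 (CD1-b4 and CD1-e) without DEX replicate 1 (0.98% of all features), and 1 (AF145485) without DEX replicate 3 (1.43%). In DEX against CNT the 0 became 6 with array weights (1.76%) and 3 with the replicate block (1.61%), and was between 0 and 2 with each animal left out (2 without DEX replicate 3, 1.27%). The replicate block left the count in DEX against NOR at 0. The median log2 fold change of the members in NOR against CNT was 0.70 with median centring, 1.08 with cyclic loess, 0.53 with the array set in the model and 1.08 with the replicate block. With signals under 20 set to 20, a floor above all control signals of the members, it was 0.00, and 0.035 in DEX against CNT. All 8 members were among the 25% of features with the lowest mean signal, so that none passed the filter that left these out. All NOR animals lay above both controls in 6 of the 8 members with median centring (17.3% of all features) and in 8 of 8 as deposited (36.2%) and with cyclic loess (25.1%), a check chosen after seeing the data.

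The median of all features moved from 0.01 to 0.15 as deposited and -0.11 with median centring in NOR against CNT, and from 0.01 to 0.14 and -0.09 in DEX against CNT. In NOR and DEX against CNT no member changed sign under any setting run. In DEX against NOR, where no member was called, the log2 fold change changed sign with array weights for CD1-b1 (0.75), AF145485 (0.26), AF145488 (0.14) and CD1-e (1.05), with the floor for CD1-b1 (0.10), and with ratios of deposited averages, as in the methods' t-test, for CD1-e (0.36). With each animal left out it ran from -0.39 to 0.23 for CD1-b1, from -0.22 to 0.40 for AF145484, from -0.95 to 0.20 for AF145485, from -0.35 to 0.34 for CD1-b4, from -0.23 to 0.10 for AF145488, from -0.0063 to 0.52 for AF145489 and from -0.86 to 0.43 for CD1-e. Why these settings moved the values was not tested.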
